A study of Mus musculus with 36 samples.

Results

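The change in gene expression that accompanied macrophage coculture was measured in olaparib-treated prostate cancer cells carrying the F133V mutant of SPOP. Its libraries are 3 of cancer cells grown opposite macrophages and 3 of the same cells grown alone, 6 of the 36 libraries of the series. They were chosen by their titles, which name the cell, the partner and the drug, and every gene with enough counts was kept, which left 15962 of 46078 genes. RM-1-BM is a mouse prostate cancer cell line, here transduced with SPOP F133V or with an empty vector, and RAW264.7 is a mouse macrophage line. In a transwell coculture the cell types share medium across a membrane. The first group is F133V RM-1-BM cells cocultured with RAW264.7 and treated with olaparib (3 libraries), and the second is F133V RM-1-BM cells treated with olaparib in monoculture (3 libraries). Beside them stand F133V cells with DMSO, the vehicle, in coculture and alone, and vector cells with olaparib in coculture and alone, with 3 libraries each. All F133V groups carry the same transduced construct. The dose and the length of treatment are not given in the labels, nor is whether the transduced cells were a pool or 1 clone.

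SPOP is the substrate adaptor of a CUL3 ubiquitin ligase, and F133V changes the domain that holds its substrates. Olaparib blocks PARP enzymes, which sense breaks in DNA, and traps them on it, so that dividing cells depend on homologous recombination. Macrophages release cytokines, interferons and metabolites that tumour cells sense through receptors and through pathways for stress, lipids, oxygen and growth.

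The 6 libraries held 32063028 to 43062440 gene counts (median 37709539). Levels are given as CPM, counts divided by the TMM-scaled library size, and differences as the log2 of coculture over monoculture ± SE, from quasi-likelihood tests in edgeR, with p-values adjusted by Benjamini and Hochberg over all tested genes. A gene was called at an adjusted p under 0.05. CPM are not corrected for gene length, so levels are compared within a gene. Separate cultures are not stated for the libraries of a group, so the p-values rest on a spread between libraries that may be technical. That spread was estimated for each gene over 8 groups together. Yet log2 deviations from the group mean had SDs of 0.0603, 0.0815 and 0.083 in the monoculture libraries. In the coculture libraries these SDs were 0.0453, 0.0429 and 0.0449, so the SE of this contrast may be too small. Spop, the transduced gene, read 114, 115 and 112 CPM in the coculture libraries, against 109, 104 and 95.7 CPM in the monoculture libraries. The groups did not overlap and the difference was small (log2 fold change 0.14 ± 0.031, adjusted p = 0.000149; adjusted p = 0.07 with scaling by library size alone). The counts do not separate the mutant from the native transcript. Krt8, keratin 8, was named for its level after its values were seen. It averaged 0.38 ± 0.0663 CPM in coculture and 0.267 ± 0.0289 CPM in monoculture in F133V cells with olaparib, and 15.8 ± 0.677 CPM in coculture and 31.4 ± 1 CPM in monoculture in vector cells with olaparib. It was picked for this difference, so it is no check of the labels.

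The 18 macrophage markers summed to 13.41 to 15.03 CPM of unscaled gene counts in the coculture libraries, against 16.66 to 17.31 in the monoculture libraries and 14490 to 14550 in the macrophages from the other side of the membrane. All CPM in this paragraph are of unscaled gene counts. Of the 10 markers tested, 0 were called higher and 1 lower. That one was Cd68, a lysosomal protein that many cells make, at 4.33 CPM in coculture and 7.08 CPM in monoculture. Ptprc, the leukocyte surface protein CD45, had 10 counts over the 3 coculture libraries and 4 over the 3 monoculture libraries, and Adgre1, the macrophage surface marker F4/80, had 1 count over the coculture libraries and 0 over the monoculture libraries. Cd14 averaged 3.95 CPM in coculture, 3.82 CPM in monoculture and 952 CPM in those macrophages, Cd53 averaged 2.34 CPM in coculture, 2.28 CPM in monoculture and 530 CPM in the macrophages, and Lyz2, lysozyme, averaged 1.07 CPM in coculture, 1.08 CPM in monoculture and 3660 CPM in the macrophages. Apart from Cd68, Cd14, Cd53 and Lyz2, the remaining 14 of the 18 averaged under 1 CPM in both groups. The 8 epithelial and prostate markers summed to 122.2 to 128.3 CPM in coculture and 67.47 to 74.16 CPM in monoculture, mostly from Krt18 (112 CPM in coculture, 65 CPM in monoculture) and Krt19 (11.5 CPM in coculture, 4.58 CPM in monoculture), while Tmprss2 had no count in any of the 6 libraries. The 7 mesenchymal markers summed to 5331 to 5411 CPM in coculture and 4049 to 4191 CPM in monoculture, and to 2597 to 2610 CPM in the macrophages. The sum in the macrophages was mostly Vim (2590 CPM, against 1300 CPM in coculture and 817 CPM in monoculture). In the cancer cells it was mostly Fn1 (3690 CPM in coculture and 3050 CPM in monoculture, against 4.17 CPM in the macrophages). In bulk RNA a changed number of cells of a type and a changed amount of RNA per cell cannot be told apart.

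Coculture with olaparib changed the lipid, secretory, glucose and interferon genes of F133V cells upward and p53 target genes downward. Of the 15962 genes, 8499 were called (53.2%), 4268 higher (26.7%) and 4231 lower (26.5%). The shares higher and lower are the background for the list counts below. With counts scaled by library size alone the split was 3286 higher and 5499 lower, so that small changes depend on the scaling. Changes of at least 2-fold were called in 932 genes (5.84%), 502 higher (3.14%) and 430 lower (2.69%). The median log2 fold change over all tested genes was −0.0094. In 28% of genes every coculture library lay above every monoculture library, and in 26.9% every one lay below, which is the background for groups described as apart.

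The 12 largest rises among called genes (mean of 5 CPM or more in the group where the gene is higher, all libraries of one group above all of the other) were of genes with mixed roles. Slc2a6, a lysosomal member of the glucose transporter family, read 20.1, 20.9 and 20.8 CPM in the coculture libraries, against 3.21, 3.67 and 3.28 CPM in the monoculture libraries (log2 fold change 2.61 ± 0.087, adjusted p = 1.86e-25). Slc14a1, a urea transporter, read 72.1, 70.8 and 70.2 CPM in the coculture libraries, against 15.2, 13.3 and 12.3 CPM in the monoculture libraries (log2 fold change 2.38 ± 0.049, adjusted p = 3.14e-32). Mfsd2a, which carries lysophospholipids with polyunsaturated chains into cells, read 5.41, 5.95 and 5.29 CPM in the coculture libraries, against 1.19, 1.27 and 1.13 CPM in the monoculture libraries (log2 fold change 2.21 ± 0.13, adjusted p = 5.05e-18). All coculture libraries lay above all monoculture libraries for these 3 genes. Itga8, the integrin alpha 8 chain, changed by 2.35 ± 0.069, St8sia1, the sialyltransferase that makes the ganglioside GD3, by 2.07 ± 0.062, and Tnfrsf9, the costimulatory receptor 4-1BB, by 2.31 ± 0.13. Cacna1i, a low-voltage calcium channel, changed by 2.16 ± 0.13 and Stra6, the retinol uptake receptor, by 2.23 ± 0.15. Isg15, Scd2 and Fads2, of the same 12, are described with their pathways.

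The 12 largest falls were ranked among genes that met the same limits of level and overlap. Fam212b read 1.29, 0.963 and 1.11 CPM in the coculture libraries, against 9.51, 9.05 and 8.83 CPM in the monoculture libraries (log2 fold change −3.03 ± 0.12, adjusted p = 1.79e-23). Sphk1, the kinase that makes sphingosine 1-phosphate, read 1.52, 1.29 and 0.99 CPM in the coculture libraries, against 6.41, 6.65 and 5.13 CPM in the monoculture libraries (log2 fold change −2.26 ± 0.16, adjusted p = 1.52e-15). Ephx1, the microsomal epoxide hydrolase, read 11.4, 11.5 and 10.9 CPM in the coculture libraries, against 41.3, 44.5 and 42.1 CPM in the monoculture libraries (log2 fold change −1.92 ± 0.046, adjusted p = 4.4e-30). Every coculture library lay below every monoculture library in all 3 genes. Nyx, nyctalopin, changed by −2.02 ± 0.12, Tnfsf4, the ligand OX40L, by −1.94 ± 0.11, and Marcks, a membrane-bound protein kinase C substrate, by −1.73 ± 0.098. Atp13a4, a P-type ATPase, changed by −1.73 ± 0.13, Psrc1, a spindle protein, by −1.67 ± 0.031, Ak1, adenylate kinase, by −1.51 ± 0.049 and Atp1b1, a sodium pump subunit, by −1.51 ± 0.080. Btg2 and Eda2r, which complete the 12, are p53 targets.

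Sterol and fatty acid genes were higher in coculture. Cells make cholesterol from acetyl-CoA through mevalonate and squalene under the SREBP transcription factors, which drive fatty acid desaturation as well. Of 26 sterol genes tested, 24 were called higher and 1 lower, where 26.7% and 26.5% of all tested genes were. Their median log2 fold change was 1.03. Cyp51, lanosterol demethylase, which takes the first sterol of the pathway toward cholesterol (GRCm38 chr5:4081145-4104746 on the minus strand), read 180, 178 and 182 CPM in the coculture libraries, against 66.3, 66.7 and 67.7 CPM in the monoculture libraries (log2 fold change 1.43 ± 0.027, adjusted p = 1.22e-33). Sqle, squalene epoxidase, read 201, 195 and 199 CPM in the coculture libraries, against 80.3, 79.7 and 77.4 CPM in the monoculture libraries (log2 fold change 1.33 ± 0.026, adjusted p = 5.3e-33). Neither gene had overlapping groups.

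Desaturases of fatty acids were higher too. Scd2, a stearoyl-CoA desaturase that makes monounsaturated fatty acids (GRCm38 chr19:44293674-44306864 on the plus strand), was the called gene with the smallest adjusted p. It read 2258, 2246 and 2227 CPM in the coculture libraries, against 442, 429 and 426 CPM in the monoculture libraries (log2 fold change 2.37 ± 0.020, adjusted p = 6.49e-45). Fads2, the delta-6 desaturase of polyunsaturated chains, read 106, 107 and 105 CPM in the coculture libraries, against 21, 18.9 and 23.2 CPM in the monoculture libraries (log2 fold change 2.33 ± 0.041, adjusted p = 1.57e-34). Its sequential partner Fads1, the delta-5 desaturase, read 302, 300.3 and 298 CPM in the coculture libraries, against 123, 131 and 124 CPM in the monoculture libraries (log2 fold change 1.25 ± 0.026, adjusted p = 5.47e-32), and the groups were apart in all 3 genes. Scd1 changed by 1.44 ± 0.022 and Fasn, fatty acid synthase, by 0.67 ± 0.022. The fatty acid list was added after Scd2 and Fads2 had been seen, so its counts are a description: 12 of 12 members were called higher and 0 lower (median 0.77). The plot of normalised counts by library shows these and further genes in 6 groups.

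**Figure D1:**
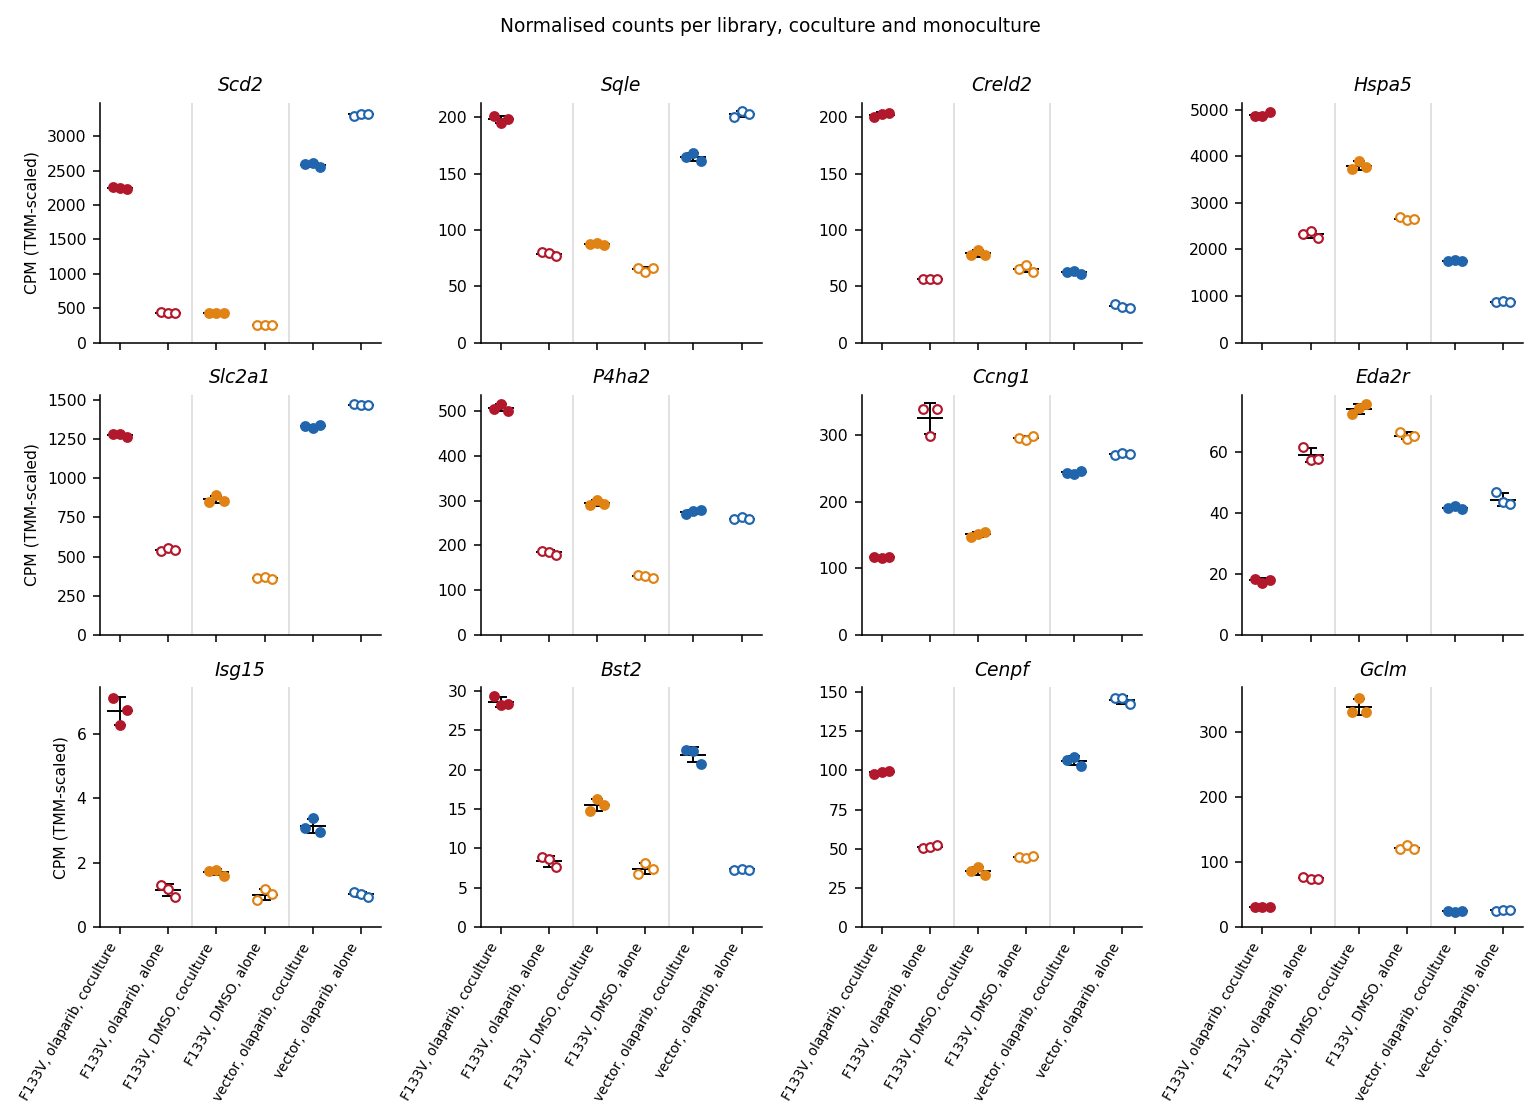
Normalised counts (CPM, linear axis from 0) of 12 genes in each library, with filled points for coculture and open points for monoculture, and the mean ± SD of 3 libraries as a black bar. Red is F133V cells with olaparib, orange F133V cells with DMSO and blue vector cells with olaparib; in red, Ccng1, Eda2r and Gclm lie lower in coculture and the other 9 genes higher.

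Chaperones and folding enzymes of the endoplasmic reticulum were higher as well. These proteins fold secreted and membrane proteins, and their genes answer to unfolded protein through XBP1 and ATF6. Among its 20 genes, 19 were called higher and 1 lower (median 1.07). Creld2, a secreted factor of stressed cells (GRCm38 chr15:88819646-88826683 on the plus strand), read 200.5, 203 and 204 CPM in the coculture libraries, against 56.3, 56.9 and 56.7 CPM in the monoculture libraries (log2 fold change 1.84 ± 0.034, adjusted p = 7.32e-34). Hspa5, the chaperone BiP, which was named after its values were seen, read 4862, 4859 and 4943 CPM in the coculture libraries, against 2334, 2389 and 2250 CPM in the monoculture libraries (log2 fold change 1.07 ± 0.022, adjusted p = 1.78e-32). Coculture libraries stood above all monoculture libraries in both. The disulfide isomerases Pdia4 and Pdia6 changed by 1.32 ± 0.021 and 1.23 ± 0.021, Hyou1, a large chaperone of the same compartment, by 1.21 ± 0.021, and Sel1l, part of the machinery that exports misfolded proteins, by 1.09 ± 0.020.

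Promoters of this list are shown because its members moved together. The windows run from 250 bases before to 50 bases after the gene start and come from RefSeq on GRCm38.p6. The motif is the endoplasmic reticulum stress response element, searched on both strands. It occurred in 8 of the 18 windows of the list (44.4%) and in 0.119% of all 32851 windows. It was added after the counts were seen and is a description of sequence, not of binding. Capitals mark the match, which starts −126 bases from the start in Creld2, on the reverse strand, and at −98 in Pdia6.
Creld2 promoter, chr15:88819396-88819695, plus strand: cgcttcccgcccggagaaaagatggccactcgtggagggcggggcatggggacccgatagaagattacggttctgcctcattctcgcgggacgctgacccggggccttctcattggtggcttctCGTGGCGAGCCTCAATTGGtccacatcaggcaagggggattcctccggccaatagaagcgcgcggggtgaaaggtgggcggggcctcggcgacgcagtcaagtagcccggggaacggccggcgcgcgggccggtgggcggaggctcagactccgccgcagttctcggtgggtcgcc
Pdia6 promoter, chr12:17266339-17266638, plus strand: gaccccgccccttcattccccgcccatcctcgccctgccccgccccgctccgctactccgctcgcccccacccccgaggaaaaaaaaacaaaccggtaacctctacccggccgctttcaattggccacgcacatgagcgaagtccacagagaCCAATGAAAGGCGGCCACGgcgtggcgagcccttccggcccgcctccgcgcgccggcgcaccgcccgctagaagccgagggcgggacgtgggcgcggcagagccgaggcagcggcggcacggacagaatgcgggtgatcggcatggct

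Genes of glucose uptake, glycolysis and the hypoxia response were higher. Under low oxygen HIF factors raise glucose transporters, glycolytic enzymes and collagen prolyl hydroxylases. Of 34 genes, 32 were called higher and 1 lower (median 0.74). Slc2a1, the glucose transporter GLUT1, read 1280, 1282 and 1263 CPM in the coculture libraries, against 538, 552 and 544 CPM in the monoculture libraries (log2 fold change 1.23 ± 0.021, adjusted p = 9.88e-35). Slc2a3, the high-affinity transporter GLUT3, read 391, 384 and 383 CPM in the coculture libraries, against 132, 129.7 and 121 CPM in the monoculture libraries (log2 fold change 1.60 ± 0.028, adjusted p = 1.32e-34). P4ha2, a collagen prolyl hydroxylase, read 505, 517 and 501 CPM in the coculture libraries, against 188, 186 and 179 CPM in the monoculture libraries (log2 fold change 1.46 ± 0.024, adjusted p = 3.38e-35), and in each of these genes the groups were apart. P4ha1, of the same family, changed by 1.08 ± 0.022, Tpi1, triose phosphate isomerase, by 1.05 ± 0.019, and Ddit4, an inhibitor of mTORC1 that HIF induces, by 0.79 ± 0.028. The mRNA of Hif1a, whose protein is set mainly by degradation, read 627, 618 and 628 CPM in the coculture libraries, against 531, 473 and 542 CPM in the monoculture libraries (log2 fold change 0.28 ± 0.029, adjusted p = 2.19e-10).

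The hypoxia response element core ACGTG, searched on both strands, was present in 23 of the 42 windows of the list (54.8%), which belong to 30 genes. It lies in 19.6% of all windows, since it is short, and it is contained in the E box CACGTG. The windows of Slc2a1 and P4ha1 carry it at −36 and −16 from the gene start, in capitals.
Slc2a1 promoter, chr4:119108495-119108794, plus strand: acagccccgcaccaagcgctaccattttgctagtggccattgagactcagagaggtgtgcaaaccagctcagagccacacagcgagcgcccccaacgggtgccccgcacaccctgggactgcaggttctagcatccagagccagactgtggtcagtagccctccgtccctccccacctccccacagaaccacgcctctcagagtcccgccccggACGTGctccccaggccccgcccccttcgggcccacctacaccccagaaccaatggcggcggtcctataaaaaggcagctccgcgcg
P4ha1 promoter, chr10:59323046-59323345, plus strand: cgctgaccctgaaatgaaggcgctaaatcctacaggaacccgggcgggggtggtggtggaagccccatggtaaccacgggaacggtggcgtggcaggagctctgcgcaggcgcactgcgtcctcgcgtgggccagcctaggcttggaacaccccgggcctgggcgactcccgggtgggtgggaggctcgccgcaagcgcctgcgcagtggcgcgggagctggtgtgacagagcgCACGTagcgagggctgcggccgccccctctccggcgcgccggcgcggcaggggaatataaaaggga

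Targets of p53 were lower in coculture. p53 is activated by DNA damage and raises genes that halt the cycle, repair DNA or kill the cell. Of 30 list genes tested, Trp53 itself among them, 20 were called lower and 1 higher (median −0.39). Ccng1, cyclin G1, a direct target that acts on MDM2 (GRCm38 chr11:40748552-40755311 on the minus strand), read 116, 116 and 118 CPM in the coculture libraries, against 339, 298 and 339 CPM in the monoculture libraries (log2 fold change −1.48 ± 0.032, adjusted p = 1.73e-31). Eda2r, a receptor of the TNF family, read 18.5, 17.2 and 18.1 CPM in the coculture libraries, against 61.7, 57.5 and 58 CPM in the monoculture libraries (log2 fold change −1.72 ± 0.040, adjusted p = 1.24e-30). Aen, a nuclease of apoptosis, read 26, 28 and 27.4 CPM in the coculture libraries, against 59.8, 63.5 and 64.3 CPM in the monoculture libraries (log2 fold change −1.20 ± 0.038, adjusted p = 4.48e-26). For all 3 genes the coculture libraries were the lower ones without overlap. Btg2, which slows proliferation, changed by −1.99 ± 0.092, Zmat3, an RNA-binding target, by −0.94 ± 0.025, and Plk2, a polo-like kinase, by −0.83 ± 0.030. Cdkn1a, the cycle inhibitor p21, differed less, at 263, 257 and 259 CPM in the coculture libraries, against 309, 319 and 296 CPM in the monoculture libraries (log2 fold change −0.25 ± 0.025, adjusted p = 4.55e-11). Trp53, given after its values were seen, was not called (log2 fold change −0.05 ± 0.024, adjusted p = 0.0803); it was called lower with scaling by library size alone (−0.13, adjusted p = 2.94e-05), with protein-coding genes only, and without monoculture replicate 1.

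A p53 half-site, the consensus decamer searched on both strands, was found in 11 of the 30 windows of the list (36.7%), which belong to 22 genes, and in 8.36% of all windows. The search was added after the counts were seen. The windows of Ccng1 and Aen hold it at −185 and −121 from the gene start, in capitals. Aen has another listed start upstream, and the same match lies 10 bases after that one.
Ccng1 promoter, chr11:40755237-40755536, minus strand: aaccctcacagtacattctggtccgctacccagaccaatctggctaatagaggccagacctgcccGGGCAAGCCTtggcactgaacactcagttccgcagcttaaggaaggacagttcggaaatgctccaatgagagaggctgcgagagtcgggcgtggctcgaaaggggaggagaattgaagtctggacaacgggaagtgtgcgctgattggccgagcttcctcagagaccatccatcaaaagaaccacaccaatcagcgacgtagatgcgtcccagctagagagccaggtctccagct
Aen promoter, chr7:78895808-78896107, plus strand: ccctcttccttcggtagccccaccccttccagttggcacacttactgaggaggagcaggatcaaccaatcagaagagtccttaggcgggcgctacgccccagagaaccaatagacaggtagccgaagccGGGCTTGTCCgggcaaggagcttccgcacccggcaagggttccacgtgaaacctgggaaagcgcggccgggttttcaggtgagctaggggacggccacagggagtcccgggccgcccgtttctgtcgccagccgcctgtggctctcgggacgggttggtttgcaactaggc

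Interferon-stimulated genes were higher. Type I interferons signal to the nucleus through a complex that includes STAT2 and IRF9 and binds the interferon-stimulated response element. Of 47 list genes 39 passed the filter on low counts, and of these 26 were called higher and 2 lower (median 0.83). Isg15, a ubiquitin-like modifier (GRCm38 chr4:156199424-156200818 on the minus strand), read 7.13, 6.27 and 6.74 CPM in the coculture libraries, against 1.32, 1.18 and 0.954 CPM in the monoculture libraries (log2 fold change 2.53 ± 0.14, adjusted p = 1.46e-18). Bst2, tetherin, which holds budding viruses at the membrane, read 29.3, 28.2 and 28.3 CPM in the coculture libraries, against 8.86, 8.61 and 7.6 CPM in the monoculture libraries (log2 fold change 1.77 ± 0.064, adjusted p = 2.63e-24). Lgals3bp, a secreted galectin-binding protein, read 61.8, 59.7 and 58 CPM in the coculture libraries, against 29.1, 29.9 and 27.7 CPM in the monoculture libraries (log2 fold change 1.05 ± 0.042, adjusted p = 9.3e-23). The groups were apart in each, and the levels of Isg15 were low. Parp9, a partner in interferon signalling, changed by 1.14 ± 0.072, Parp14 by 0.91 ± 0.089 and Ifi204, a DNA-binding protein of the AIM2-like family, by 0.88 ± 0.050. Ifnb1, interferon beta, had 0 counts in all 6 libraries.

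The core of this element, searched on both strands, was present in 20 of the 40 windows of the list (50%), which belong to 34 genes, and in 3.44% of all windows. Isg15 holds overlapping matches at −78, −72, −66 from the gene start and Bst2 at −130, −124, in capitals.
Isg15 promoter, chr4:156200769-156201068, minus strand: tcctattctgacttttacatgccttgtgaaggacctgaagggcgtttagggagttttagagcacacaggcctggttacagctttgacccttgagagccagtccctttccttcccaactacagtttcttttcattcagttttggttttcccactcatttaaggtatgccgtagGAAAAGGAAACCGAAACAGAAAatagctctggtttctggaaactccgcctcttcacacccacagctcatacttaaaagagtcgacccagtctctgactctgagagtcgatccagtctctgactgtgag
Bst2 promoter, chr8:71537423-71537722, minus strand: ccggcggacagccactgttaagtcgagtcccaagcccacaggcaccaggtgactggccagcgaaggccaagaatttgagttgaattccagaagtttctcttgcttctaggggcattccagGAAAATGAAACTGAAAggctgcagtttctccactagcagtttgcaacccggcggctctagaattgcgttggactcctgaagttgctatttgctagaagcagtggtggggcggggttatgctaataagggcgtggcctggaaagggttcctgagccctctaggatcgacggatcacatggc

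Other motifs were searched on both strands in the same way. These shares and those of the motifs above cover all list genes, called or not. The lists hold genes known for their pathways, so a raised share says nothing about the coculture effect. The sterol regulatory element, as a single fixed sequence, was in 0 of 22 windows of the sterol list, 0 of 12 of the fatty acid list and 0.091% of all windows. The AP-1 site TGANTCA was in 0 of 28 windows of immediate early genes and 7.81% of all windows; 15 of the 30 tested genes of that list were called higher and 9 lower. The antioxidant response element core TGACNNNGC was in 8 of 33 windows of the antioxidant list and 12.4% of all windows. The C/EBP-ATF core TGATGNAA was in 7 of 29 windows of the integrated stress list and 3.97% of all windows. The E box CACGTG was in 6 of 22 windows of the MYC network and 7.15% of all windows; 6 of the 16 tested genes of that list were called higher and 7 lower.

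Genes of antigen presentation and inflammation changed in part. Of 16 MHC class I and peptide loading genes tested, 9 were called higher and 3 lower (median 0.18). With scaling by library size alone 7 were higher and 6 lower (median 0.10). H2-K1, a class I heavy chain, read 143, 148 and 142 CPM in the coculture libraries, against 75.3, 74.2 and 71.6 CPM in the monoculture libraries (log2 fold change 0.97 ± 0.026, adjusted p = 2.58e-28), but reads may be shared with related class I genes, which makes the count uncertain. Tapbpl, a peptide editor, changed by 0.73 ± 0.050 and Psme1, a proteasome activator, by 0.77 ± 0.035. Changes over the MHC list ran from −1.63 to 0.97, with 0 members called higher and 1 called lower by at least 2-fold. Cd274, the checkpoint ligand PD-L1, read 13.2, 14.2 and 14.3 CPM in the coculture libraries, against 11.7, 12.2 and 11.3 CPM in the monoculture libraries (log2 fold change 0.25 ± 0.076, adjusted p = 0.00591; 0.0573 with scaling by library size alone). Of 23 NF-kB genes tested, 11 were higher and 4 lower (median 0.28), where 26.7% of all tested genes were higher and 26.5% lower. With scaling by library size alone 9 NF-kB genes were higher and 8 lower. Tnfaip3, the feedback inhibitor A20, changed by 1.27 ± 0.067, Ier3, an early response gene, by 1.22 ± 0.036, and Birc3, a ubiquitin ligase of the same pathway, by 0.86 ± 0.058. Ptgs2, the cyclooxygenase COX-2, was high in both groups, with 1059, 1049 and 1064 CPM in coculture and 994, 931 and 1005 CPM in monoculture (log2 fold change 0.11 ± 0.025, adjusted p = 0.000193; 0.239 with scaling by library size alone).

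Of 22 chemokine and colony-stimulating factor genes 10 were tested, 7 called higher and 2 lower. Cx3cl1, fractalkine, read 49.4, 52.8 and 50.5 CPM in the coculture libraries, against 18.9, 21.2 and 18.8 CPM in the monoculture libraries (log2 fold change 1.37 ± 0.043, adjusted p = 1.82e-26). Ccl2, a monocyte attractant, was at low levels, with 2.48, 2.47 and 1.79 CPM in the coculture libraries, against 0.35, 0.651 and 0.626 CPM in the monoculture libraries (log2 fold change 2.06 ± 0.20, adjusted p = 2.95e-11). Ccl7, a related attractant, changed by 1.38 ± 0.17. Ccl5 was below 1 CPM in every library and its groups were apart by little (log2 fold change 1.57 ± 0.64, adjusted p = 0.0374); it was not called without coculture replicate 2 (adjusted p = 0.27), monoculture replicate 1 (0.123) or monoculture replicate 2 (0.142), nor by DESeq2 (0.0513). Csf1, the growth factor of macrophages, was lower, with 196, 195 and 198 CPM in the coculture libraries, against 279.9, 278 and 277 CPM in the monoculture libraries (log2 fold change −0.50 ± 0.025, adjusted p = 1.09e-19). Il6 had 1, 3 and 2 counts in coculture and 4, 3 and 4 in monoculture. Tnf had 3, 4 and 1 counts in coculture and 0 in each monoculture library. Cxcl10 had 7, 9 and 2 in coculture and 11, 5 and 3 in monoculture. None of these 3 passed the filter on low counts.

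Of 9 genes of the pathway that senses DNA in the cytosol, 6 were called higher and 0 lower (median 0.23), or 5 higher and 1 lower with scaling by library size alone. Over all tested genes 26.7% were called higher and 26.5% lower. Tmem173, which encodes STING, read 41.9, 40.9 and 41.2 CPM in the coculture libraries, against 28.7, 29 and 30.1 CPM in the monoculture libraries (log2 fold change 0.50 ± 0.043, adjusted p = 1.04e-12). Mb21d1, which encodes the DNA sensor cGAS, read 4.37, 3.88 and 4.39 CPM in coculture and 4.71, 4.7 and 4.86 CPM in monoculture and was not called (log2 fold change −0.18 ± 0.094, adjusted p = 0.117), but with scaling by library size alone it was called lower (−0.25, adjusted p = 0.0219). Ikbke, a kinase downstream of it, changed by 0.64 ± 0.070. Stat3, the transcription factor downstream of gp130 cytokines, changed by 0.24 ± 0.033 and Lif, one such cytokine, by −0.87 ± 0.049.

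Cell division genes were higher. Of 35 mitosis genes, 30 were called higher and 2 lower (median 0.40). Cenpf, a kinetochore protein, read 97.8, 99 and 99.4 CPM in the coculture libraries, against 50.3, 51 and 52.2 CPM in the monoculture libraries (log2 fold change 0.95 ± 0.032, adjusted p = 2.22e-25). Mki67, the proliferation antigen Ki-67, read 91.5, 94 and 97.5 CPM in the coculture libraries, against 58.3, 58.5 and 63.7 CPM in the monoculture libraries (log2 fold change 0.65 ± 0.037, adjusted p = 6.37e-18), and the groups of both genes were apart. Dlgap5 and Tpx2, which build the spindle, changed by 0.71 ± 0.058 and 0.50 ± 0.044, and Top2a, the topoisomerase of dividing cells, by 0.39 ± 0.027. S phase genes were less uniform: 18 of 36 were higher and 7 lower (median 0.13), where 26.7% of all tested genes were higher and 26.5% lower. Without monoculture replicate 3, 11 were higher and 7 lower, and with scaling by library size alone 12 were higher and 8 lower (median 0.051). Myc, which drives growth, was lower, with 80.5, 77 and 77.7 CPM in the coculture libraries, against 128, 135 and 148 CPM in the monoculture libraries (log2 fold change −0.80 ± 0.041, adjusted p = 1.44e-19).

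Genes of the repair pathways on which olaparib bears were mostly not called. Of 41 genes of homologous recombination and the Fanconi pathway, 12 were called higher and 5 lower (median 0.087), where 26.7% of all genes were higher and 26.5% lower. With scaling by library size alone 7 were higher and 7 lower (median 0.011). Without coculture replicate 2, 3 were lower, and without coculture replicate 3 the median was 0.049. Brca1, which directs the resection of broken ends, read 13.4, 15 and 14.1 CPM in the coculture libraries, against 8.84, 8.55 and 9.18 CPM in the monoculture libraries (log2 fold change 0.68 ± 0.062, adjusted p = 5.7e-12). Brca2, which acts in strand exchange, went the other way, with 12.4, 13.1 and 11.9 CPM in the coculture libraries, against 19.9, 20.6 and 22.8 CPM in the monoculture libraries (log2 fold change −0.76 ± 0.064, adjusted p = 4.75e-13). Xrcc2, which assists strand exchange, changed by −0.43 ± 0.082, Mus81, an endonuclease of branched DNA, by 0.36 ± 0.057, and Rad50 by 0.20 ± 0.038. Of 16 PARP and PARG genes, 8 were higher and 3 lower, or 7 higher and 5 lower with scaling by library size alone and 8 and 1 without monoculture replicate 1. Parp1, the main target of olaparib, read 141, 144 and 142 CPM in the coculture libraries, against 103, 107 and 102 CPM in the monoculture libraries (log2 fold change 0.45 ± 0.027, adjusted p = 3.19e-17). Parp2, its other nuclear target, was lower, at 11.5, 12.7 and 13 CPM in the coculture libraries, against 15, 16.4 and 17.3 CPM in the monoculture libraries (log2 fold change −0.38 ± 0.065, adjusted p = 3.5e-06). Parp3 was not called (log2 fold change 0.035 ± 0.031, adjusted p = 0.361), with 68.4, 71.1 and 68.5 CPM in coculture and 66.6, 67.4 and 69.1 CPM in monoculture.

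**Figure D2:**
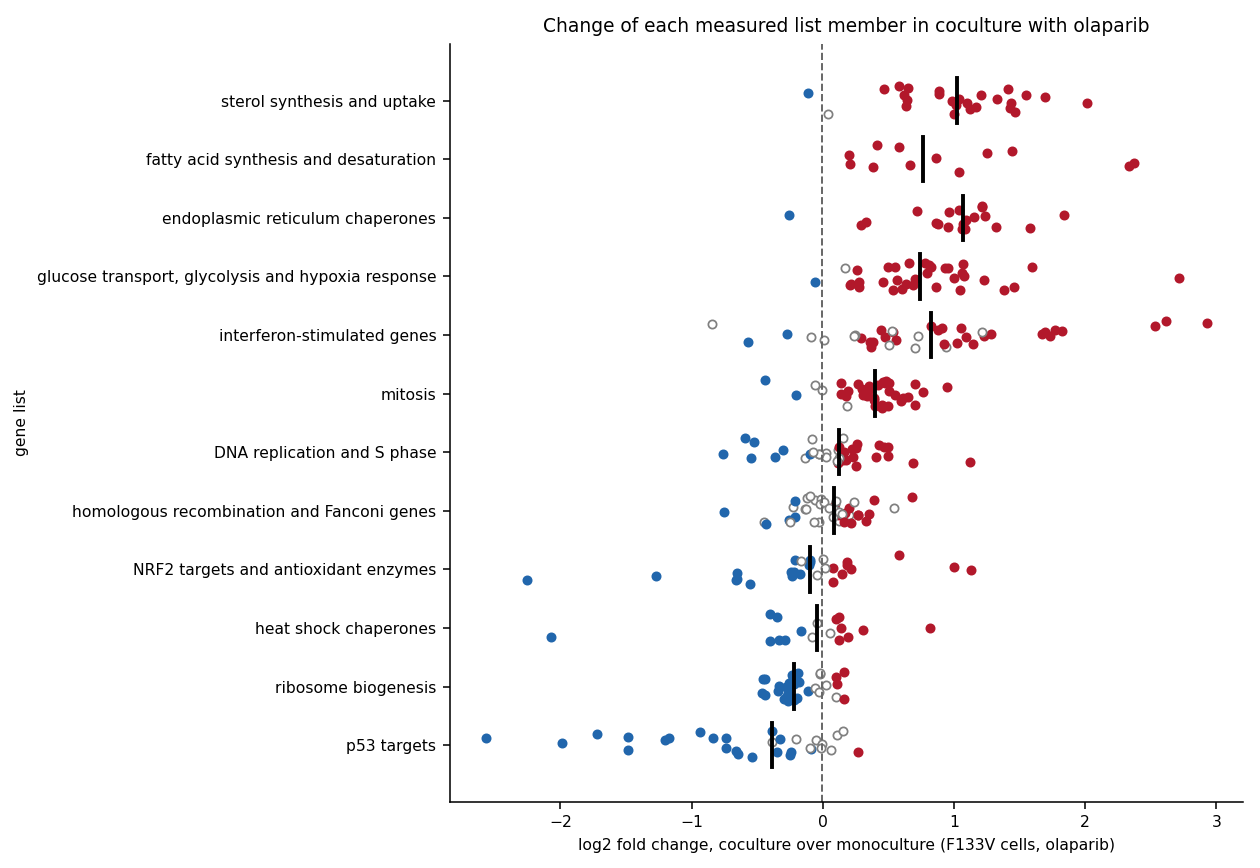
Log2 fold change of coculture over monoculture in F133V cells with olaparib for each tested member of 12 gene lists, with filled points for called genes (red higher, blue lower) and open points for genes that were not called. Black bars are list medians, from 1.07 for endoplasmic reticulum chaperones to −0.39 for p53 targets, and the dashed line is the median of all tested genes.

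Antioxidant genes went both ways. NRF2 raises genes of glutathione, thioredoxin and NADPH supply. Of 27 tested, 9 were called higher and 14 lower, where 26.7% of all tested genes were higher and 26.5% lower. The list median was −0.095, or −0.17 with scaling by library size alone. Gclm, which modifies the enzyme that starts glutathione synthesis, read 31.7, 31.2 and 30.7 CPM in the coculture libraries, against 76.7, 73.9 and 74.8 CPM in the monoculture libraries (log2 fold change −1.27 ± 0.035, adjusted p = 3.89e-28). Txnrd1, thioredoxin reductase, read 353, 344 and 347 CPM in the coculture libraries, against 548, 559 and 534 CPM in the monoculture libraries (log2 fold change −0.65 ± 0.021, adjusted p = 3.15e-26). Nqo1, a quinone reductase of the same list, was instead higher, with 184, 186 and 180.2 CPM in the coculture libraries, against 85, 85.8 and 80.8 CPM in the monoculture libraries (log2 fold change 1.13 ± 0.031, adjusted p = 2.58e-28), as was G6pdx, which makes NADPH (1.00 ± 0.030). Groups were apart in all 4. Hmox1, heme oxygenase, changed by 0.18 ± 0.023. Slc7a11, the cystine importer, changed by 0.081 ± 0.027; it was not called with only the groups of the contrast (adjusted p = 0.0802), without coculture replicate 1 (0.0501) or without monoculture replicate 2 (0.204), nor with scaling by library size alone (0.901).

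Lists of other stress, translation and ribosome genes had medians from −0.22 to 0.15. For each list the background is that 26.7% of all tested genes were called higher and 26.5% lower. Of 28 genes of the integrated stress response and amino acid supply, 17 were higher and 3 lower (median 0.075). With scaling by library size alone 11 were higher and 6 lower (median −0.0011). Psph and Aldh1l2, of serine synthesis and folate metabolism, changed by 0.60 ± 0.028 and 0.59 ± 0.021, and Slc3a2, the shared heavy chain of amino acid transporters, by 0.56 ± 0.021. Of 20 cytosolic aminoacyl-tRNA synthetases 15 were higher and 3 lower (median 0.15, or 0.077 with scaling by library size alone and 5 lower), with Farsa, a subunit of the phenylalanine enzyme, at 0.59 ± 0.037. Heat shock chaperones were split, 7 higher and 7 lower of 17 (median −0.042), but 3 higher and 9 lower with scaling by library size alone (median −0.12). Their median was −0.012 without coculture replicate 2 and −0.0029 without monoculture replicate 2. Among 31 genes of ribosome biogenesis 21 were lower and 4 higher (median −0.22; 1 higher with scaling by library size alone), including Utp20, a factor of the small subunit, at −0.44 ± 0.026, and Nolc1, a nucleolar phosphoprotein, at −0.34 ± 0.027.

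Matrix, keratin and growth factor genes changed one by one. Of 24 collagen and matrix genes tested, 10 were higher and 7 lower (median 0.17), where 26.7% of all tested genes were higher and 26.5% lower. The median was 0.077 without monoculture replicate 2 and 0.098 with scaling by library size alone. Col3a1, a fibrillar collagen, read 153, 159 and 153 CPM in the coculture libraries, against 67, 68.1 and 66.6 CPM in the monoculture libraries (log2 fold change 1.20 ± 0.026, adjusted p = 2.5e-31). Spp1, osteopontin, read 1506, 1507 and 1504 CPM in the coculture libraries, against 666, 631 and 653 CPM in the monoculture libraries (log2 fold change 1.21 ± 0.020, adjusted p = 5.51e-35), and neither gene had overlapping groups. Thbs2, a matricellular thrombospondin, changed by 0.68 ± 0.021 and Fn1, fibronectin, by 0.35 ± 0.018. Of 22 matrix proteases and inhibitors 8 were higher and 9 lower. Keratin and junction genes were higher in 5 of 13 tested and lower in 1, with Krt18, keratin 18, at 0.86 ± 0.035, Krt19 at 1.41 ± 0.081 and Dsp, desmoplakin, at −0.87 ± 0.060. Fgf21, a stress-induced hormone, read 37.5, 37.6 and 39 CPM in the coculture libraries, against 12.9, 12.4 and 11.7 CPM in the monoculture libraries (log2 fold change 1.62 ± 0.052, adjusted p = 5.47e-26). Igfbp6, which binds insulin-like growth factor II, changed by 1.35 ± 0.030, and Cyr61, a matricellular target of YAP, by −1.21 ± 0.071. Of 18 tested genes among SPOP, CUL3 and substrates known for SPOP, 6 were higher and 8 lower (median −0.041). That median was −0.12 with scaling by library size alone, −0.062 without monoculture replicate 1 and −0.015 without monoculture replicate 3. Of 21 TGF-beta and activin genes 9 were higher and 6 lower (median 0.092), or 7 and 7 with scaling by library size alone (median 0.016). Of 13 regulators of mesenchymal transition 9 were higher and 4 lower (median 0.28).

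Structural RNA and mitochondrial transcripts moved with the groups. Together, the genes of small nuclear RNA, Cajal body RNA, ribozymes and miscellaneous RNA took 102, 96.9 and 102 CPM of unscaled gene counts in the coculture libraries, against 180, 201 and 179 CPM in the monoculture libraries. The groups did not overlap, and an exact two-sided permutation test gave p = 0.1, the smallest that 3 against 3 libraries allow. Rn7sk, the 7SK RNA, which sequesters the elongation factor P-TEFb, read 31.6, 29.4 and 32.4 CPM in the coculture libraries, against 76.5, 81.6 and 70.6 CPM in the monoculture libraries (log2 fold change −1.29 ± 0.045, adjusted p = 6.04e-25). Rpph1, the RNA of ribonuclease P, changed by −1.34 ± 0.066, and Hexim1, the protein that works with the 7SK RNA, went the other way at 0.59 ± 0.032. Gm26917, a gene model listed here with the 7SK and abundant structural RNAs, read 4900, 4988 and 4898 CPM in the coculture libraries, against 14120, 15210 and 11870 CPM in the monoculture libraries (log2 fold change −1.48 ± 0.044, adjusted p = 4e-27). mt-Rnr2, the large mitochondrial ribosomal RNA, read 1233, 1202 and 1269 CPM in the coculture libraries, against 2847, 2368 and 3022 CPM in the monoculture libraries (log2 fold change −1.15 ± 0.051, adjusted p = 2.56e-21). Of the 13 protein genes encoded by mitochondria, 11 were called lower and 0 higher (median −0.37). Changes over this list ran from −3.58 to −0.22, and 1 member was called lower by at least 2-fold. Without monoculture replicate 3, 9 were lower and the median was −0.23. Their summed share averaged 17760 ± 360 CPM of unscaled gene counts in coculture and 22880 ± 3740 CPM in monoculture (SD, n = 3 each). The part of these shifts in the changes of the other gene groups was not tested; with protein-coding genes only, 3866 genes were called higher and 4063 lower.

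**Figure D3:**
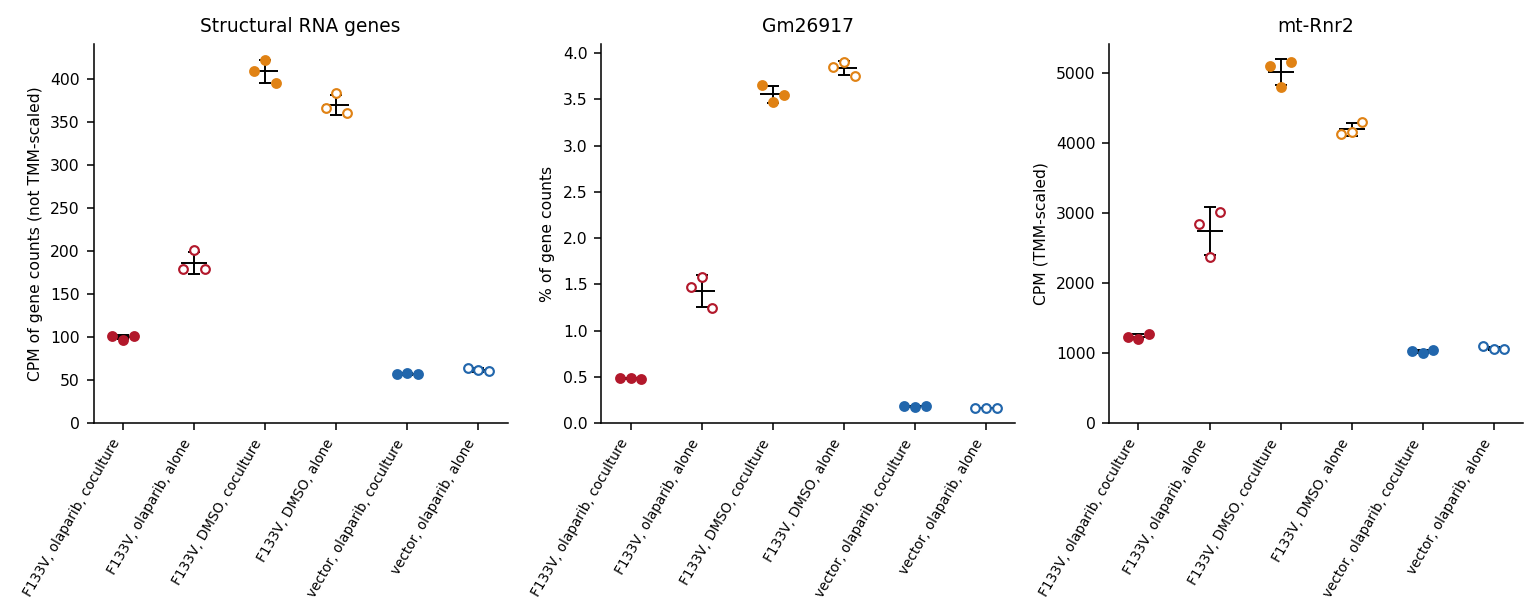
Structural RNA genes (CPM of unscaled gene counts), Gm26917 (% of gene counts) and mt-Rnr2 (TMM-scaled CPM) in each library of 6 groups, with filled points for coculture, open points for monoculture, and mean ± SD of 3 libraries in black. In F133V cells with olaparib all 3 measures lie lower in coculture, where structural RNA took 96.9 to 102 CPM, against 179 to 201 CPM in monoculture.

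The same step into coculture was measured in F133V cells with DMSO, where coculture changed 11226 genes (70.3%), 5677 higher (35.6%) and 5549 lower (34.8%). No library is shared between the effects with olaparib and with DMSO. Their difference was tested as an interaction, the log2 change with olaparib minus that with DMSO, and it was called in 10289 genes (64.5%), 5257 above 0 (32.9%) and 5032 below 0 (31.5%). Among genes called in both, 2026 were higher in both and 1978 lower in both, while 1369 were higher with olaparib and lower with DMSO and 1491 the reverse. Gclm averaged 339 ± 12.2 CPM in coculture and 123 ± 2.9 CPM in monoculture with DMSO, so its fall with olaparib stood against a rise of 1.47 ± 0.028, and the interaction was −2.73 ± 0.045, adjusted p = 6.53e-35. Txnrd1 averaged 1875 ± 33.1 CPM in coculture and 711 ± 0.976 CPM in monoculture with DMSO (interaction −2.05 ± 0.029, adjusted p = 7.26e-37). Akr1b3, aldose reductase, differed similarly: its change was −0.29 ± 0.029 with olaparib and 2.19 ± 0.026 with DMSO (interaction −2.49 ± 0.039, adjusted p = 1.78e-35). Ccnd1, cyclin D1, read 332, 334 and 331 CPM in coculture and 311, 303 and 299 CPM in monoculture with olaparib (adjusted p = 0.0665 with scaling by library size alone) and averaged 94.8 ± 3.54 CPM in coculture and 275 ± 4.63 CPM in monoculture with DMSO (interaction 1.66 ± 0.034, adjusted p = 7.25e-32).

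By lists, the effect with olaparib was above that with DMSO for sterol genes (21 of 26 interactions called above 0 and 2 below), mitosis genes (33 and 1 of 35), interferon genes (28 and 0 of 39) and endoplasmic reticulum chaperones (17 and 3 of 20). It was below that with DMSO for p53 targets (1 above 0 and 22 below, of 30), heat shock chaperones (0 and 17 of 17), antioxidant genes (3 and 21 of 27) and ribosome biogenesis (1 and 27 of 31). Glucose and hypoxia genes were divided (17 above 0 and 11 below, of 34), and this list's median was 0.74 with olaparib and 0.61 with DMSO. Mitosis genes had a median of 0.40 with olaparib and −0.26 with DMSO, where 1 of 35 was called higher and 24 lower. Interferon genes had a median of 0.83 with olaparib and −0.18 with DMSO, where 4 of 39 were called higher and 16 lower. Hsph1, a heat shock chaperone, differed by 0.10 ± 0.022 with olaparib (adjusted p = 0.298 with scaling by library size alone) and by 1.54 ± 0.021 with DMSO. Bst2, among the 4 interferon genes higher with DMSO, and Slc2a1 rose in both settings: Bst2 by 1.77 ± 0.064 with olaparib and 1.05 ± 0.073 with DMSO, and Slc2a1 by 1.23 ± 0.021 with olaparib and 1.25 ± 0.021 with DMSO, with interactions of 0.72 ± 0.099, adjusted p = 5.03e-08 for Bst2 and −0.026 ± 0.029, adjusted p = 0.459 for Slc2a1. Ptgs2 averaged 3746 ± 85.2 CPM in coculture and 1292 ± 27.2 CPM in monoculture with DMSO (interaction −1.42 ± 0.036, adjusted p = 8.73e-29). Scaling by library size alone moved the median interaction of all genes to 0.16, against 0.022 with TMM. The counts of interactions by list were not redone with other scaling. Nor were the counts and medians of the effects with DMSO and in vector cells.

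**Figure D4:**
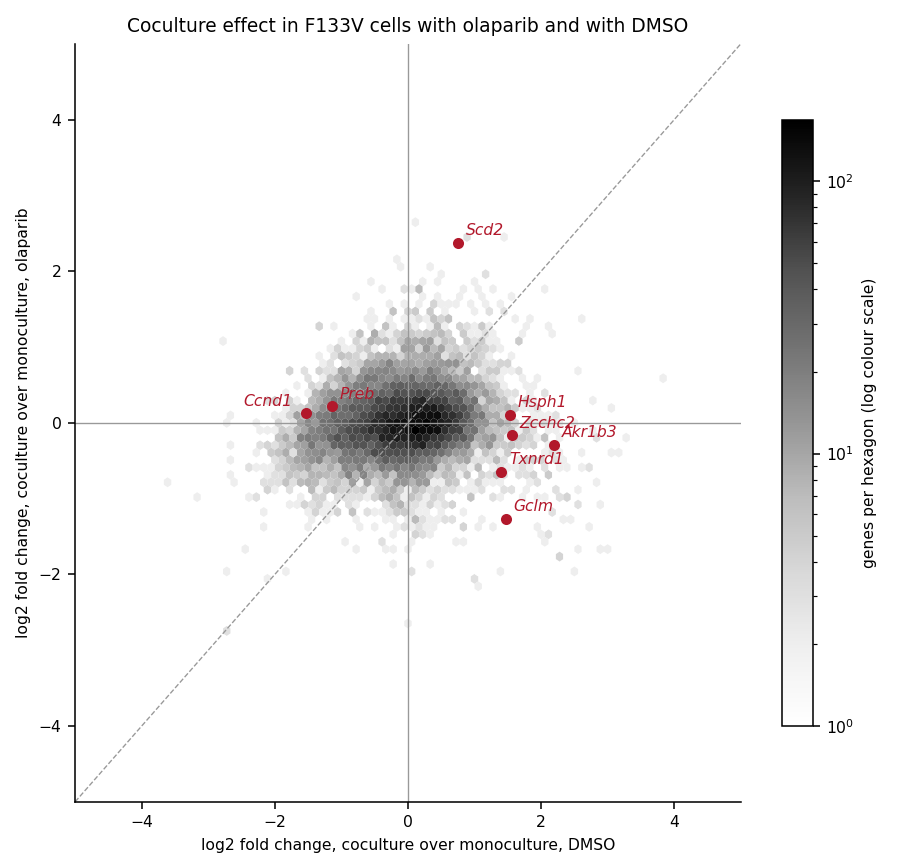
Each tested gene's log2 fold change of coculture over monoculture in F133V cells with olaparib (vertical) and with DMSO (horizontal), as a density of genes per hexagon on a log colour scale, with the 8 genes of smallest adjusted interaction p in red. The dashed line marks equal change; Gclm, Txnrd1 and Akr1b3 lie below 0 with olaparib and above 0 with DMSO, and 10 genes fall outside the axes.

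Vector cells with olaparib gave the same contrast without the mutant, although the cells may differ in more than SPOP. Coculture changed 7034 genes there (44.1%), 4077 higher (25.5%) and 2957 lower (18.5%). The interaction, the log2 change in F133V cells minus that in vector cells, was called in 7491 genes (46.9%), 3485 above 0 (21.8%) and 4006 below 0 (25.1%). Of genes called in both cell types, 1654 were higher in both, 874 lower in both, 1113 higher in F133V and lower in vector cells, and 1199 the reverse. Scd2 averaged 2586 ± 28.7 CPM in coculture and 3318 ± 16.8 CPM in monoculture in vector cells, above the level of F133V monoculture in both groups (interaction 2.73 ± 0.027, adjusted p = 3.05e-42). Sqle averaged 165 ± 3.16 CPM in coculture and 203 ± 2.61 CPM in monoculture there (interaction 1.63 ± 0.035, adjusted p = 3.96e-31). Slc2a3 changed by 1.60 ± 0.028 in F133V and −1.12 ± 0.027 in vector cells (interaction 2.72 ± 0.039, adjusted p = 5.02e-37).

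The sterol list had a median of 1.03 in F133V cells and −0.13 in vector cells, with 23 of 26 interactions called above 0 and 1 below. Glucose and hypoxia genes had medians of 0.74 in F133V and −0.14 in vector cells (31 of 34 above 0, 0 below), and mitosis genes 0.40 in F133V and −0.45 in vector cells (33 of 35 above, 1 below). p53 targets had −0.39 in F133V and −0.043 in vector cells (2 of 30 above, 23 below). Interferon genes were mostly higher in both cell types, with medians of 0.83 in F133V and 1.07 in vector cells, where 32 of 39 were called higher. Of their interactions 5 were called above 0 and 13 below, where 21.8% of all tested genes were above and 25.1% below. Isg15 averaged 3.15 ± 0.228 CPM in coculture and 1.03 ± 0.0814 CPM in monoculture in vector cells (interaction 0.92 ± 0.22, adjusted p = 0.000617). NF-kB genes had medians of 0.28 in F133V and 0.69 in vector cells, where 22 of 23 were called higher (2 interactions above 0, 16 below). MHC class I and peptide loading genes had medians of 0.18 in F133V and 0.78 in vector cells, where 15 of 16 were called higher (2 above, 10 below). Endoplasmic reticulum chaperones were mostly higher in both as well, with medians of 1.07 in F133V and 0.77 in vector cells and 15 of 20 interactions above 0 and 2 below. The interaction of Hspa5 was small but called (0.076 ± 0.030, adjusted p = 0.0388), with changes of 1.07 ± 0.022 in F133V and 1.00 ± 0.022 in vector cells. This interaction was not redone with other scaling. Scaling by library size alone moved the median interaction with genotype over all genes from −0.026 to −0.080. Csf1 went opposite ways, by −0.50 ± 0.025 in F133V and 1.09 ± 0.029 in vector cells (interaction −1.59 ± 0.039, adjusted p = 1.33e-29), and so did Myc, by −0.80 ± 0.041 in F133V and 1.31 ± 0.066 in vector cells (interaction −2.12 ± 0.077, adjusted p = 5.91e-24).

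**Figure D5:**
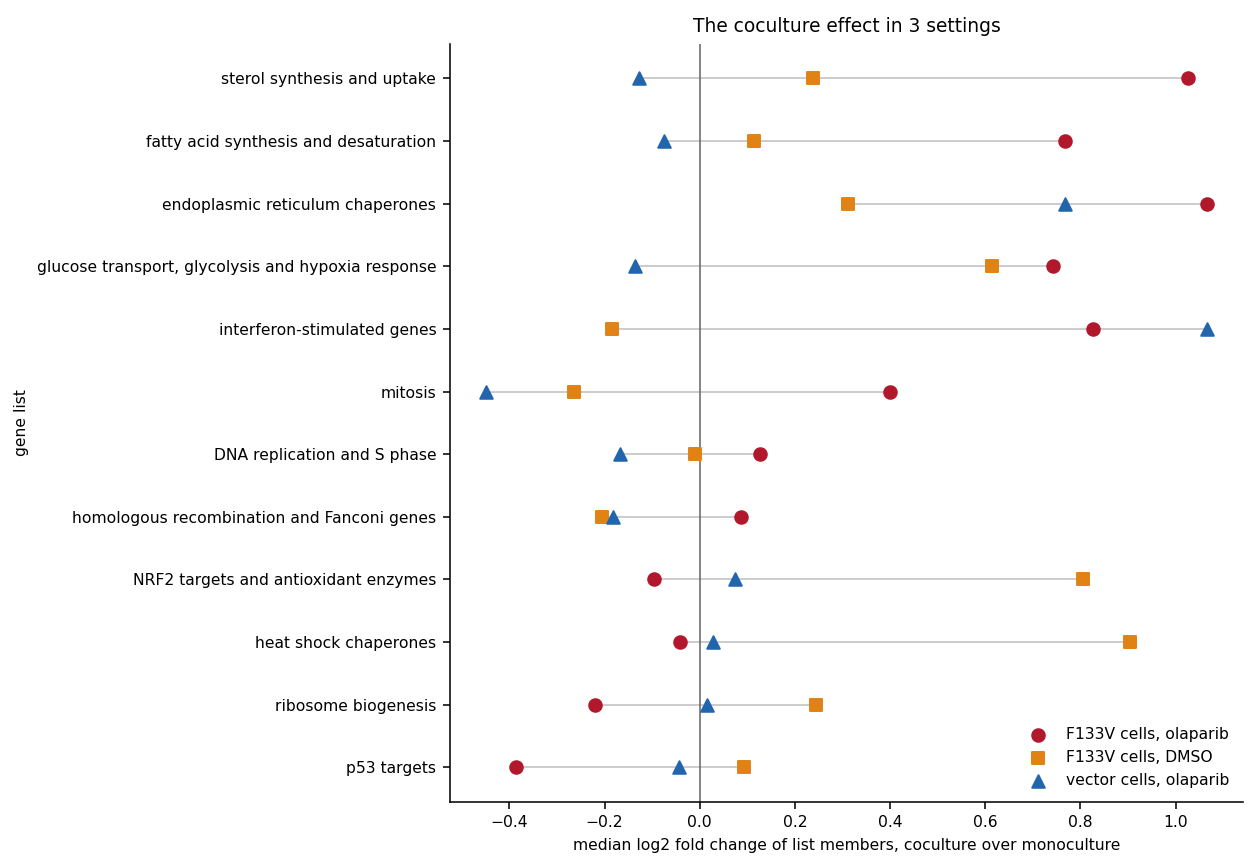
Median log2 fold change of coculture over monoculture over the tested members of 12 gene lists in F133V cells with olaparib (red circles), F133V cells with DMSO (orange squares) and vector cells with olaparib (blue triangles). Sterol genes lie at 1.03 in F133V cells with olaparib, 0.24 in F133V cells with DMSO and −0.13 in vector cells, and p53 targets at −0.39 in F133V cells with olaparib, 0.094 in F133V cells with DMSO and −0.043 in vector cells. Medians with DMSO and in vector cells were not redone with other scaling, so the sign of small ones is uncertain.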

How the data were processed

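RNA-seq was done on total RNA extracted with TRIzol, per the labels' protocols. The authors deposited raw read counts per gene, 1 file per library, with 5 HTSeq summary lines that were left out of library sizes. In the 6 libraries no-feature reads were 17.8% to 19.9% of gene counts and summary lines together. The submitters' processing notes name STAR, TopHat, HTSeq, DESeq2 and GRCm38, with the counting aligner, tool versions and strandedness not given in the sources used here. All 24 cancer cell libraries (8 groups of 3) were fitted together in edgeR 4.0.16 (R 4.3.3) with TMM scaling and filterByExpr (minimum count 10). Quasi-likelihood tests had 16 residual degrees of freedom. TMM factors were 0.98 to 1.05 in the 6 libraries and 0.85 to 1.06 over the 24. The lowest were those of F133V cells cocultured with DMSO (0.849, 0.855 and 0.866), which enter the interaction with olaparib. Each SE is the size of the log2 fold change over the root of F. The procedure was also run on simulated counts in which few genes were changed, equally up and down, in the F133V coculture group with olaparib. That run does not test data such as these, where 53.2% of genes were called. Alternatives were DESeq2 1.42.0, RLE scaling, library size alone, no filter, only the groups of the contrast, protein-coding genes only, a replicate block, and each library left out in turn. Reported values use every library, and none of 36 pairs of libraries within a group held identical counts.

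The members, lists and alternatives were chosen with earlier results of these data known. Genes are named from a fixed set, from the 12 largest called rises and falls with at least 5 CPM and no overlap between groups, from at most 5 called members of each list, by smallest adjusted p, and from 8 genes per interaction. Hspa5, Krt8 and Trp53 fall outside this rule, and the marker genes Cd68, Ptprc, Adgre1, Cd14, Cd53, Lyz2 and Tmprss2 come from the marker lists. Some genes that the rule admits are not reported here. Without a known strand setting, counts are uncertain for genes whose exons overlap another gene in GENCODE M21, which holds for 38 of the 121 genes named: Ace, Aldh1l2, Atp1b1, Brca2, Ccnd1, Cd274, Cdkn1a, Col3a1, Cyp51, Dsp, Ephx1, Fn1, G6pdx, Gclm, Hif1a, Ikbke, Itga8, Krt8, Mb21d1, Mus81, Parp1, Parp14, Parp3, Parp9, Pdia4, Pdia6, Preb, Psme1, Psph, Rpph1, Scd2, Slc2a1, Sphk1, Spp1, St8sia1, Stat3, Top2a and Tpi1. Figures were drawn with matplotlib 3.10.9.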

Additional observations from a re-analysis of the deposited data

Results flagged for a closer look

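The coculture effect in F133V cells differed between olaparib and DMSO, by a test of the difference itself, in 10289 genes. Among the 8 with the smallest adjusted p the interactions (log2 change with olaparib minus that with DMSO) were −2.49 for Akr1b3, −2.05 for Txnrd1, 1.63 for Scd2, −2.73 for Gclm, −1.43 for Hsph1, −1.72 for Zcchc2, 1.36 for Preb and 1.66 for Ccnd1. Preb, a regulator of secretory vesicle formation, changed by 0.22 ± 0.021 with olaparib and −1.14 ± 0.022 with DMSO, and Zcchc2 by −0.17 ± 0.027 with olaparib and 1.56 ± 0.025 with DMSO.

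With olaparib, the coculture effect differed between F133V and vector cells in 7491 genes. Among the 8 with the smallest adjusted p the interactions reported here (log2 change in F133V cells minus that in vector cells) were 2.72 for Slc2a3, 2.43 for Arrb1, 3.14 for Ace, 2.73 for Scd2, 1.97 for Col3a1, 1.84 for Scd1 and −2.53 for Ly6c1. Ace, angiotensin-converting enzyme, read 77.4, 78.2 and 77 CPM in coculture and 25.3, 24 and 27.2 CPM in monoculture in F133V cells and averaged 48.2 ± 1.2 CPM in coculture and 140.3 ± 4.04 CPM in monoculture in vector cells. Ly6c1, a surface protein of the Ly6 family, read 32.4, 33.5 and 32.9 CPM in coculture and 82.9, 89.3 and 80.2 CPM in monoculture in F133V cells and averaged 104 ± 2.9 CPM in coculture and 45.9 ± 1.23 CPM in monoculture in vector cells. Arrb1, beta-arrestin 1, read 85.9, 85.7 and 85 CPM in coculture and 22.1, 21.9 and 21.9 CPM in monoculture in F133V cells and averaged 65.5 ± 1.75 CPM in coculture and 90.3 ± 1.82 CPM in monoculture in vector cells.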

How the results depend on the processing

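The coculture effect in F133V cells with olaparib and both interactions were rerun, while the effects with DMSO and in vector cells were not. For those rerun, counts of called genes over all tested genes, in total and by direction, stayed within 1.5 times the reported ones. Counts and medians of single lists moved by more, as given beside the lists; in the lists of interferon genes, p53 targets, glucose genes, keratin and junction genes, MHC genes and PARP genes the smaller of both counts, 1 to 3 genes as reported, also moved under further alternatives, to 0 to 6 genes. For the coculture effect, 8137 genes were called by DESeq2, 8497 with RLE scaling, 8785 with library size alone, 8220 without a filter, 7929 among protein-coding genes and 7502 with only its own groups. Leaving out 1 library gave 7838 to 8300 calls for the coculture effect, 10019 to 10260 for the interaction with olaparib and 7079 to 7568 for the interaction with genotype. Library size alone put 37.4% of calls higher for the coculture effect (50.2% with TMM) and 61.4% above 0 for the interaction with olaparib (51.1%). Deviations of same-numbered coculture and monoculture libraries from their group means correlated at 0.027, 0.126 and −0.009. With 3 libraries per group these values cannot show whether same-numbered libraries share a day or batch. With a replicate block, 8535, 10285 and 7537 genes were called. Of 136 gene results, 127 kept call and direction under every alternative, none was reversed, and the exceptions are given with each gene. These results are the coculture effect of each named gene and the interactions of genes picked by smallest adjusted interaction p. Interactions given for Hspa5, Isg15, Bst2, Slc2a1, Ptgs2, Sqle, Csf1 and Myc are not among them and were not redone. The log2 ratio of structural RNA ran from −0.93 to −0.84 without 1 library, an alternative chosen after seeing the data. Il6, Tnf and Cxcl10 had too few counts to be tested.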
